A study of Mus musculus with 17 samples.

Results

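The genes of glycolysis, of pyruvate and lactate handling and of the pentose phosphate pathway were followed through sorted mouse macrophages, those of liver and those of fat. The set was a fixed list of 32 gene symbols, each taken from the deposited table of 40548 genes as the entry with that symbol. All 32 were found, and all 32 were among the 15285 genes that passed the filter on low counts. Gapdh and Pgk1 had counts far lower than is usual for these genes, so the counts of genes called are given with both and without them (30 genes).

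Glycolysis splits glucose into pyruvate: hexokinases trap glucose in the cell, phosphofructokinase commits it to breakdown, and the lower steps make ATP. Pyruvate either enters the mitochondria through the pyruvate dehydrogenase complex, which the Pdk kinases switch off, or is reduced to lactate by lactate dehydrogenase and leaves through monocarboxylate transporters. The pentose phosphate pathway branches off at glucose 6-phosphate and makes NADPH, which macrophages use for the oxidative burst, for glutathione and for lipid synthesis. Many glycolytic genes are known targets of the transcription factor HIF-1, and inflammatory activation of macrophages is known to raise glycolysis.

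The mice were of the Cx3Cr1-GFP/WT line on a C57BL/6 background, in which a green fluorescent reporter replaces 1 copy of the chemokine receptor gene Cx3cr1. This genotype was common to all groups. The diet, fed for 16 weeks, was standard mouse chow (STD) or one labelled high fat, high sucrose (HFD). STD KC (n = 3) and HFD KC (n = 5) came from liver and were gated as TIM4+ with high F4/80, the profile of Kupffer cells (KC), the resident macrophages of the liver. Cx3cr1pos HFD (n = 4) were liver macrophages positive for the reporter, and ATM HFD (n = 5) were macrophages of adipose tissue, gated by F4/80 with CD64. The labels name no age or sex, do not say whether animals were pooled or whether libraries came from separate animals, and p-values then measure the spread between these libraries. Of the 4 groups only STD KC had standard chow, so the effect of diet can be read in Kupffer cells alone. Within HFD KC, libraries hf1, hf2 and hf3 carry the sort label CD68 and hfd1 and hfd2 the label frac_neg, which all STD KC libraries carry. All ATM HFD libraries carry frac_neg and all Cx3cr1pos HFD libraries frac_pos. The sort label and the tissue therefore differ together between these groups and cannot be told apart.

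Libraries held from 25644835 to 38207943 counts in total. Levels are CPM, the count of a gene relative to the total count of its library. Differences are log2 fold changes from edgeR, and a gene is called when its p-value, adjusted over all genes tested, is under 0.05. Where groups are said not to overlap, this only describes the libraries of that gene. The share of all genes without overlap is not given here. Values listed without names follow the order std1, std2, std3 in STD KC, hfd1, hfd2, hf1, hf2, hf3 in HFD KC and ATM HFD, and hf1, hf2, hf3, hfd2 in Cx3cr1pos HFD. Markers of macrophages summed to between 14852 and 23027 CPM in the 17 libraries. Kupffer cell markers summed to 42330 to 44549 CPM in STD KC and 32116 to 46975 in HFD KC, but to 6067 to 13348 CPM in the Cx3cr1pos libraries and 174 to 192 in the adipose ones. Hepatocyte markers summed to 97.6 to 499 CPM in HFD KC and to 1.87 to 3.02 in ATM HFD, and markers of the liver sinusoidal endothelium to 1241 to 3070 and 95.2 to 130 CPM. Stromal markers were highest in ATM HFD (119 to 327 CPM, against 17.3 to 46.0 in the other libraries). In bulk RNA of sorted cells, fewer cells of a type and less RNA per cell cannot be told apart.

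The summed level of the 32 genes was 5899 to 6196 CPM in STD KC and 6367 to 7626 in HFD KC. It was 6947 to 8305 CPM among the Cx3cr1pos libraries and 5013 to 6251 among the adipose ones. The HFD KC libraries all lay above the STD KC libraries, and the Cx3cr1pos libraries all above the ATM libraries. The order of the group means differed by step. The 8 genes of lower glycolysis all had their highest mean in Cx3cr1pos HFD, and 7 of the 8 had their lowest in STD KC. These include Gapdh, Pgk1, Pgam1 and Eno1, whose levels cannot be read from the counts, as described below. The 4 pentose phosphate genes all had their lowest mean in ATM HFD. At the phosphofructokinase step, 4 of the 5 genes had their highest mean in ATM HFD, some by little. Pfkm stood at 11.7 CPM there against 11.6 in STD KC, and Pfkfb4 at 129.6 against 124.1 in Cx3cr1pos HFD. Pfkfb3 (55.4 against 50.1 CPM in Cx3cr1pos HFD) was called in no comparison. Over the 32 genes, the median coefficient of variation between libraries was 7.69% for STD KC and 14.7% for HFD KC, against 12.7% and 13.2% for the Cx3cr1pos and adipose libraries.

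**Figure D1:**
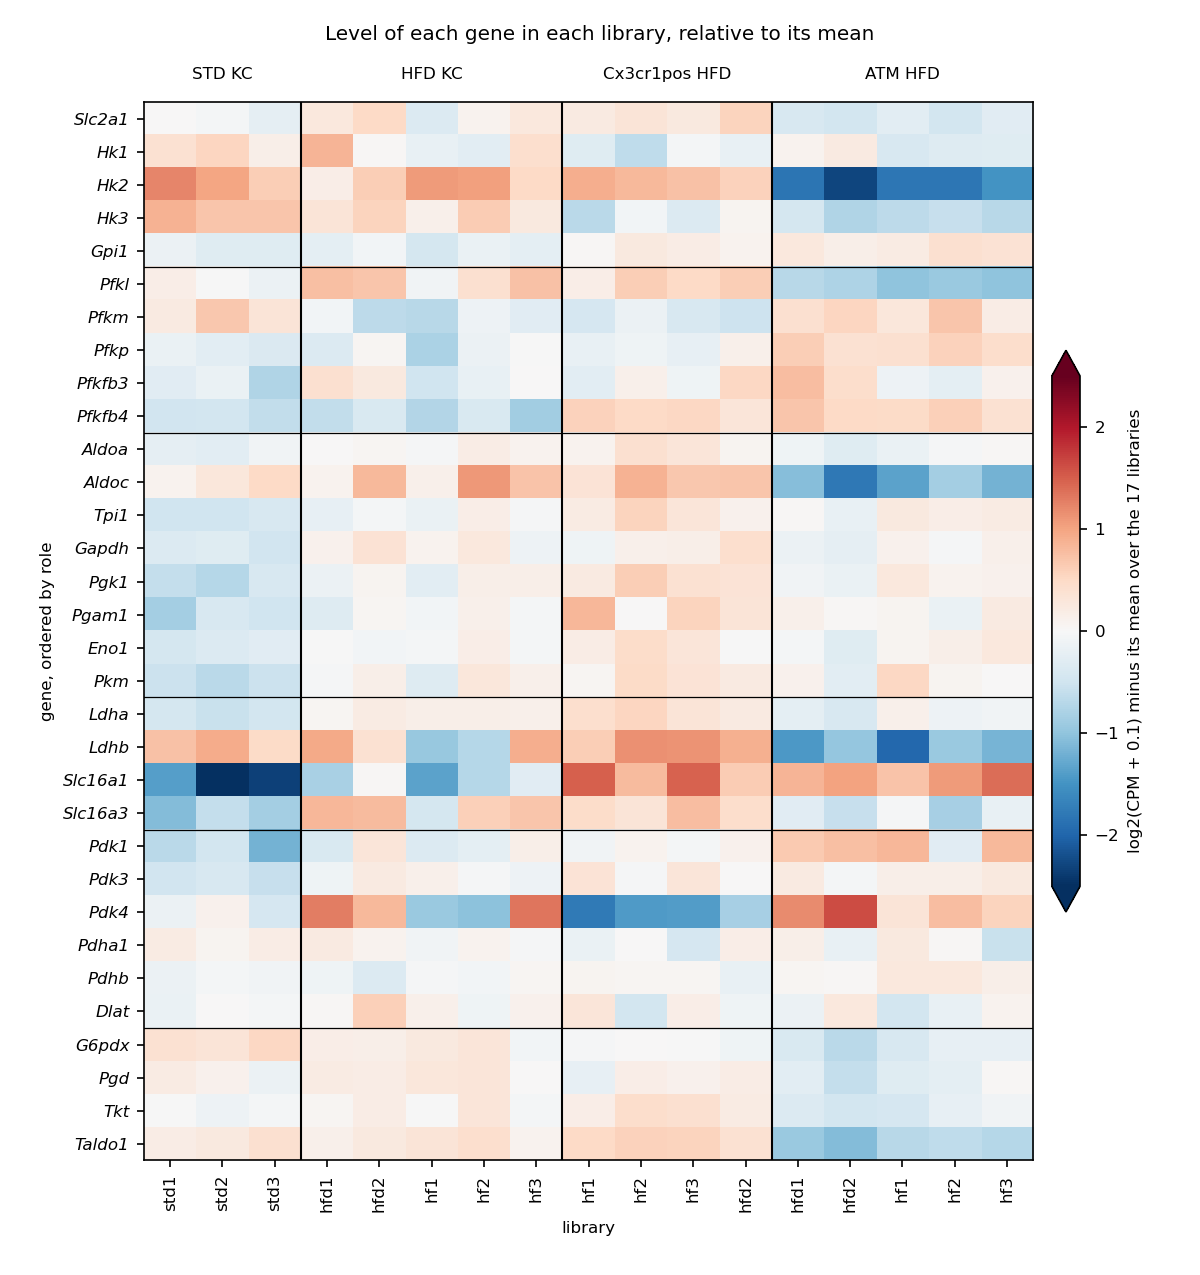
Level of each of the 32 genes in each of the 17 libraries, as log2(CPM + 0.1) minus the mean of that gene over all libraries, with genes ordered by role and libraries by group. Slc16a1 is lowest in STD KC, Hk2, Aldoc and Ldhb are lowest in ATM HFD, and the 4 pentose phosphate genes in the bottom block are low in ATM HFD.

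The 4 comparisons differed widely in how many genes of the set were called. On the diet, 5 of the 32 were higher and 1 was lower in HFD KC than in STD KC, where 2.27% of all genes tested were called higher and 1.13% lower. Between the liver populations on HFD, 4 were higher and 2 lower in Cx3cr1pos HFD than in HFD KC, beside 5.85% and 7.48% of all genes. Adipose macrophages had 6 of the 32 higher and 13 lower than HFD KC, beside 23.8% and 25.2% of all genes, and 3 higher and 16 lower than Cx3cr1pos HFD, beside 18.9% and 20.8%. The median log2 fold change of the 32 genes was 0.26, 0.13, -0.22 and -0.30 in this order, and that of all genes tested 0.02, 0.00, 0.00 and -0.03. Without Gapdh and Pgk1 the counts were 4 and 1, 4 and 2, 6 and 13, and 3 and 15. The comparisons share groups with one another, so their values are given side by side and are not independent of each other.

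**Figure D2:**
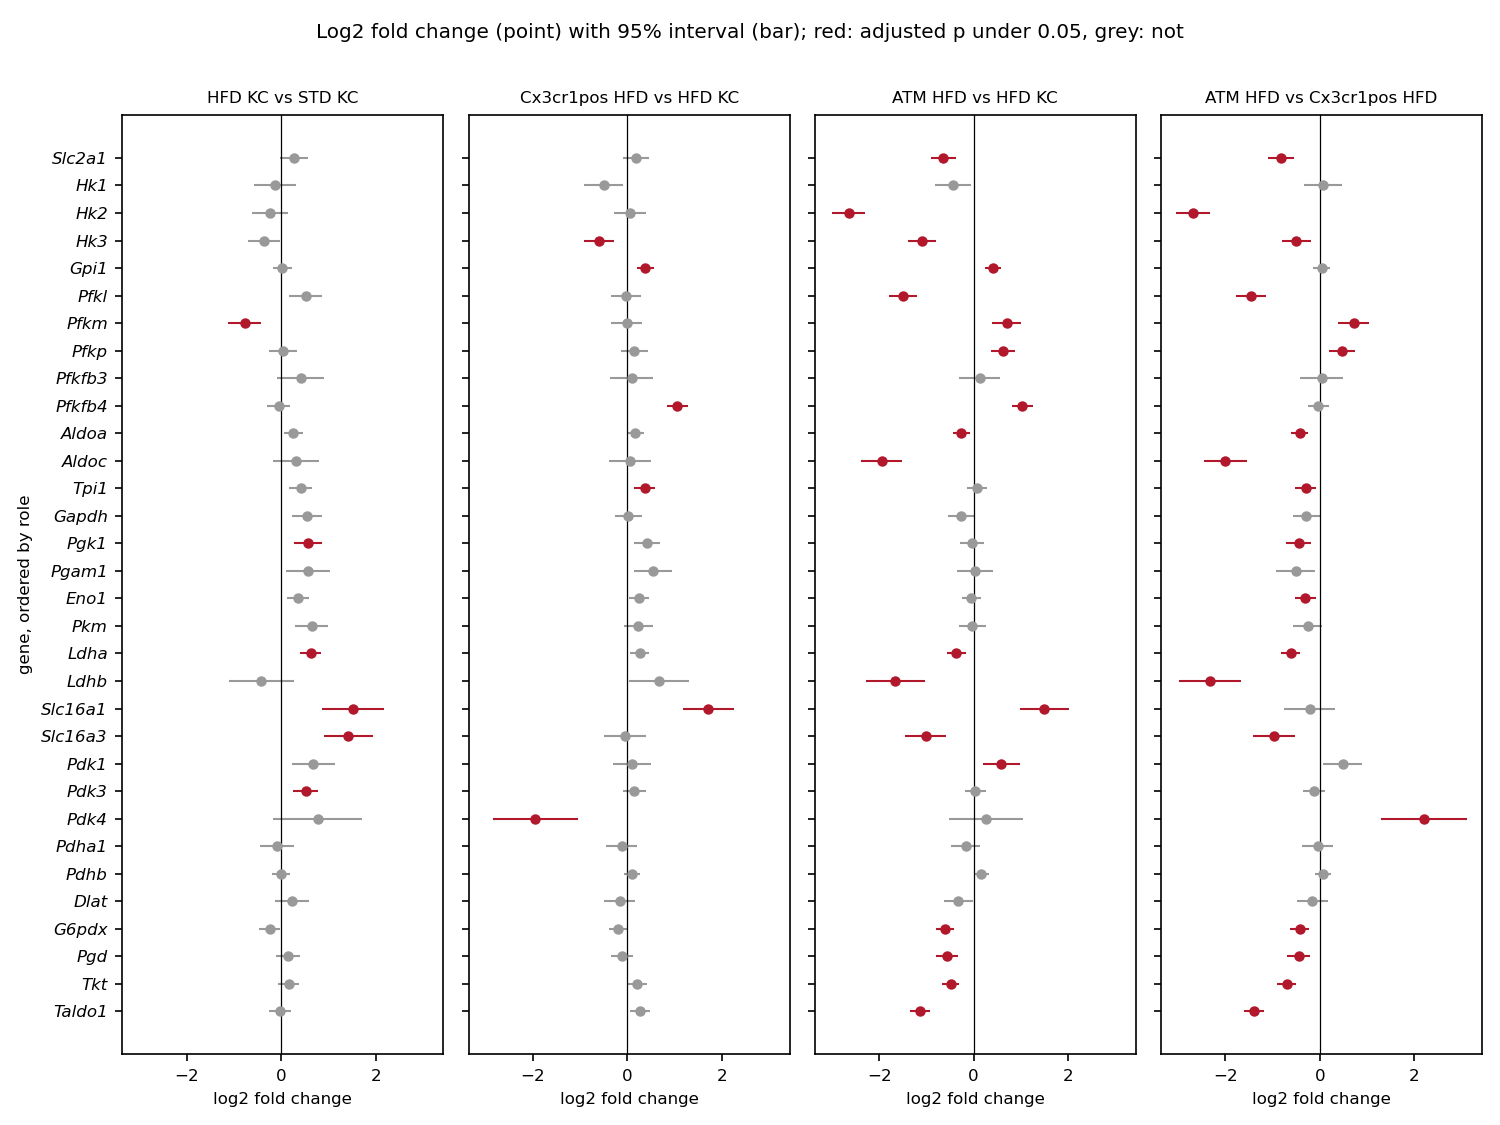
Log2 fold change of each of the 32 genes in the 4 comparisons, with 95% intervals. Red points passed an adjusted p of 0.05 and grey points did not: red points lie mostly to the right of 0 in the diet comparison and mostly to the left in both comparisons of ATM HFD.

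Promoters are shown for 4 of the 5 genes that were called in 3 comparisons, those with the smallest adjusted p. These were hexokinase 3 (Hk3), lactate dehydrogenase A (Ldha) and the monocarboxylate transporters Slc16a1 (MCT1) and Slc16a3 (MCT4). The fifth, Pfkm, is not shown, and no gene was called in all 4 comparisons. The sequences are the 250 bases before the transcription start in RefSeq on build GRCm38.p6, written 5′ to 3′ on the strand of the gene. Capitals mark ACGTG or GCGTG on either strand (CACGT and CACGC on the strand shown), the core letters that HIF binds, and CACGTG holds ACGTG on both strands and is also the E-box of MYC and USF. For Ldha, which has 2 entries, the entry with most matches is shown.
Hk3, chr13:55021386-55021635, minus strand: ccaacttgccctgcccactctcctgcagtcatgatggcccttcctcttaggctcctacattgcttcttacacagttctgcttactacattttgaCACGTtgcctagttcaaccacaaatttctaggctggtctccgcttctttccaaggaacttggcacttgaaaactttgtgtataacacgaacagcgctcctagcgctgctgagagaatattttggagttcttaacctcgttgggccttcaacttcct
Ldha, chr7:46845554-46845803, plus strand: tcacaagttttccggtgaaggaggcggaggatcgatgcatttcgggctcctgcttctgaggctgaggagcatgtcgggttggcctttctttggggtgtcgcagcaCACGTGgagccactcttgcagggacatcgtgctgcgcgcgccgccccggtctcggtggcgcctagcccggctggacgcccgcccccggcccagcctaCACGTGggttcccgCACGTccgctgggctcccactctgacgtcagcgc
Slc16a1, chr3:104638414-104638663, plus strand: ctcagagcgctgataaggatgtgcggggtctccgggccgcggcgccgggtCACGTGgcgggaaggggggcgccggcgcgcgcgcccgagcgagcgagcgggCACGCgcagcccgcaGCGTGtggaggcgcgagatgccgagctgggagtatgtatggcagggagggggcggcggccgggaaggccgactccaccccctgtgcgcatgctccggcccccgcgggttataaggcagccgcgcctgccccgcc
Slc16a3, chr11:120948817-120949066, plus strand: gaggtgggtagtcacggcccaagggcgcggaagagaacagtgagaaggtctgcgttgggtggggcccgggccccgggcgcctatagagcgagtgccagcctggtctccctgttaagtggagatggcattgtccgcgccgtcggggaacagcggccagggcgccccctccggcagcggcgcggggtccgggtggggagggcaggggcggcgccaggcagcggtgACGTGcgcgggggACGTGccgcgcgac

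The Ldha window held 5 matches to ACGTG, 4 of them in a pair of CACGTG boxes. That of Slc16a1 held 2 to ACGTG and 2 to GCGTG, that of Slc16a3 held 2 to ACGTG close to the start, and that of Hk3 held 1. Of 32851 RefSeq entries, 38.6% held either motif (16.6% ACGTG, 28.2% GCGTG). The 32 genes had 46 entries, of which 80.4% held either (37% ACGTG, 58.7% GCGTG), and 29 of the 32 genes had it in at least 1 entry. Base composition was not matched between the sets, and a match is a description of letters, not of binding.

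Of the 6 calls on the diet, 3 fell among the 4 genes of lactate formation and monocarboxylate transport. Slc16a3, Ldha and Slc16a1 rose in Kupffer cells on HFD, where 2.27% of all genes were called higher. The median log2 fold change of the 4 genes was 1.02, against 0.02 over all genes. Slc16a3, which exports lactate from glycolytic cells, stood at 3.32, 4.67 and 3.91 CPM in STD KC. In HFD KC it stood at 12.8 (hfd1), 12.5 (hfd2), 5.26 (hf1), 10.9 (hf2) and 11.6 CPM (hf3). The groups did not overlap, though hf1 lay near the STD KC libraries. The level rose 2.68-fold (log2 1.42 ± 0.26 SE, adjusted p = 0.00613). The call was kept without any single library and in each of the other alternatives, though narrowly in some (adjusted p up to 0.0498). With the HFD libraries named hf alone the log2 fold change was 1.20, and with those named hfd alone 1.70.

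Ldha, which turns pyruvate into lactate, stood at 411, 377 and 406 CPM in STD KC. In the 5 HFD KC libraries it lay between 574 and 646 CPM, namely 574 (hfd1), 646 (hfd2), 615 (hf1), 620.1 (hf2) and 608 (hf3). The groups were far apart for their spread, with means of 398 ± 18.5 and 613 ± 25.7 CPM (SD, n = 3 and n = 5). Ldha rose 1.54-fold (log2 0.62 ± 0.12 SE, adjusted p = 0.00643), and adjusted p was 0.0744 without STD KC std2. In ATM HFD the level was 468, 419.5, 605, 511 and 527 CPM, which was lower than in HFD KC, with hf1 of ATM HFD inside the HFD KC range (log2 -0.36, adjusted p = 0.00567), and lower than in Cx3cr1pos HFD (log2 -0.62, adjusted p = 0.000171). Cx3cr1pos HFD held the highest levels (743, 814, 700.3 and 654 CPM in hf1, hf2, hf3 and hfd2), all above HFD KC, but this difference did not pass (log2 0.26, adjusted p = 0.12).

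Slc16a1, a transporter of lactate and pyruvate that works in both directions, was lowest in STD KC, at 2.19, 0.884 and 1.08 CPM. It stood at 3.31, 5.98, 2.24, 3.53 and 4.81 CPM in HFD KC (hfd1, hfd2, hf1, hf2, hf3) and at 16.6, 10.2, 16.3 and 9.14 CPM in Cx3cr1pos HFD (hf1, hf2, hf3, hfd2). In ATM HFD it stood at 10.5, 11.9, 9.69, 12.3 and 15.5 CPM. The levels therefore fell into 3 steps, with Cx3cr1pos and adipose macrophages overlapping at the top, and HFD KC hf1 just above STD KC std1. The rise on HFD was 2.87-fold (log2 1.52 ± 0.34 SE, adjusted p = 0.0179), and it did not pass without STD KC std2 (adjusted p = 0.139), without std3 (0.122), with the libraries named hf alone (0.0678) or with only the 2 groups in the fit (0.0929). Cx3cr1pos HFD was 3.28-fold above HFD KC (log2 1.71 ± 0.28, adjusted p = 0.000504), and ATM HFD 2.82-fold above HFD KC (log2 1.50 ± 0.27, adjusted p = 0.000183).

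Against HFD KC the transporters differed in opposite directions in the adipose cells, with Slc16a1 higher and Slc16a3 lower. In ATM HFD, Slc16a3 stood at 5.86, 4.77, 6.99, 3.99 and 6.24 CPM, below the 9.83, 8.92, 12.3 and 9.80 CPM of Cx3cr1pos HFD without overlap (log2 -0.97 ± 0.23, adjusted p = 0.00273). It was also below HFD KC (log2 -1.02 ± 0.22, adjusted p = 0.000908), where hf1 alone fell within the adipose range.

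Lactate dehydrogenase B (Ldhb), the isoenzyme of oxidative tissues, was lowest in ATM HFD, at 4.19, 5.85, 2.89, 5.99 and 5.07 CPM, against 17.7, 25.5, 25.1 and 21.5 in Cx3cr1pos HFD. The difference was 5.03-fold (log2 -2.33 ± 0.34, adjusted p = 3.59e-05). In HFD KC the libraries split, with 22.2, 14.9 and 21.6 CPM in hfd1, hfd2 and hf3 but 5.88 in hf1 and 6.93 in hf2. The same 2 libraries had the lowest endothelial marker sums of the group (1288 and 1241 CPM, against 1621 to 3070) and the highest Kupffer cell sums (46975 and 46880, against 32116 to 42449), and the part of other cells in the Ldhb values was not tested. ATM HFD was still below HFD KC (log2 -1.66 ± 0.32, adjusted p = 0.000368), and STD KC stood at 19.2, 22.1 and 16.0 CPM. Of the windows of 50 bases in Ldhb transcripts, 21.0% occur in a pseudogene as well, against 10.4% in Ldha and 0% in Slc16a1 and Slc16a3.

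**Figure D3:**
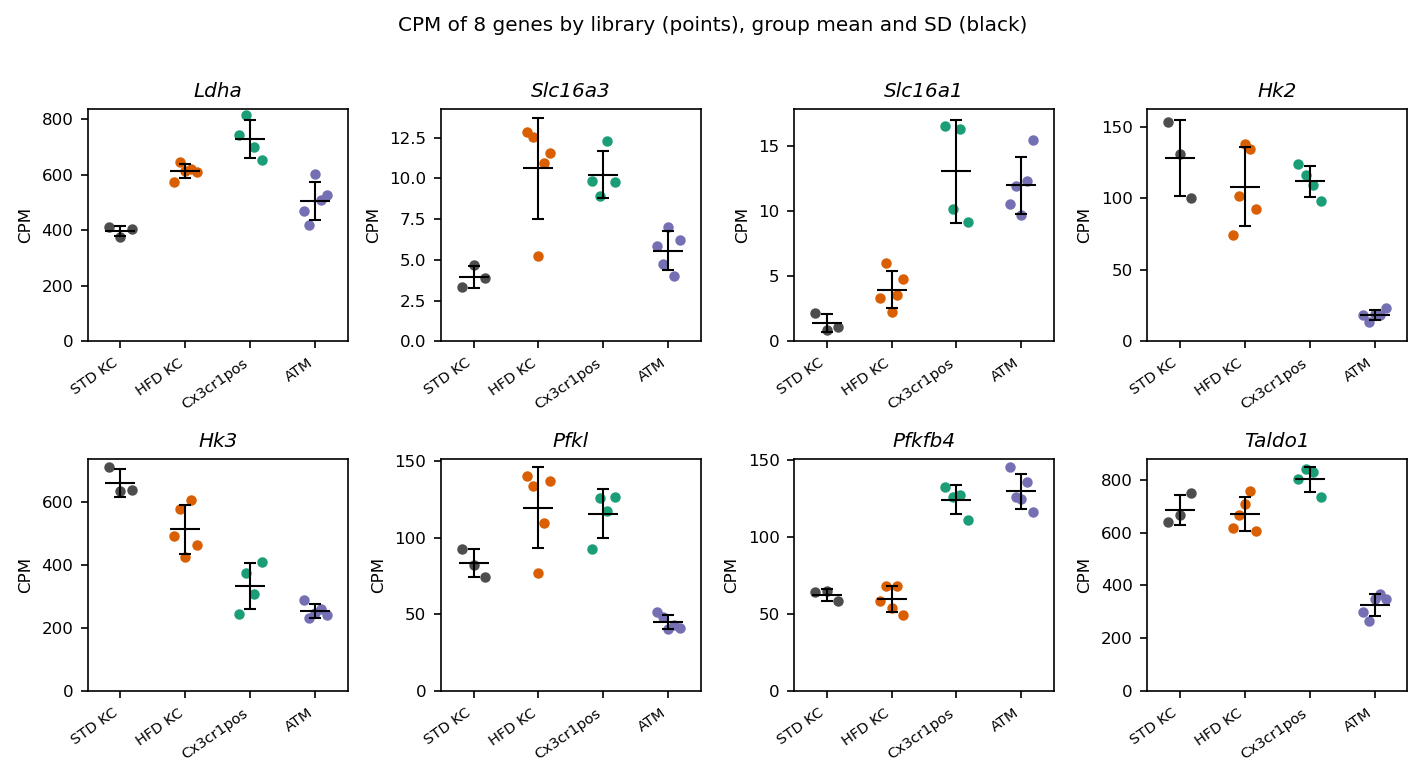
CPM of Ldha, Slc16a3, Slc16a1, Hk2, Hk3, Pfkl, Pfkfb4 and Taldo1 in each library (points) with the group mean and SD (black), each axis starting at 0. The STD KC points lie below all HFD KC points for Ldha, Slc16a3 and Slc16a1, and the ATM points lie below all liver points for Hk2, Pfkl and Taldo1.

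At the entry of glucose, 3 of the 5 genes were lower in adipose than in liver macrophages in both comparisons, with Hk2 first. The median log2 fold changes were -0.64 against HFD KC and -0.50 against Cx3cr1pos HFD. Of all genes, 25.2% and 20.8% were called lower in these comparisons. Hk2, the inducible hexokinase that docks on mitochondria, stood at 18.6, 13.3, 18.8, 18.7 and 23.4 CPM in ATM HFD. In HFD KC it stood at 74.4 (hfd1), 102 (hfd2), 138 (hf1), 134 (hf2) and 92.7 CPM (hf3), and in Cx3cr1pos HFD at 124, 116, 109 and 98.4. No adipose library came near a liver library, and the STD KC libraries (154, 131 and 101 CPM) lay with the other liver cells. ATM HFD was 6.23-fold below HFD KC (log2 -2.64 ± 0.18, adjusted p = 3.02e-09) and 6.46-fold below Cx3cr1pos HFD (log2 -2.69 ± 0.18, adjusted p = 7.69e-09). These had the smallest adjusted p of the set in both comparisons, and no window of 50 bases in Hk2 transcripts is shared with another gene.

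Hk3, the hexokinase typical of myeloid cells, stepped down from group to group. It stood at 711, 635 and 636 CPM in STD KC and at 492, 579, 424, 606 and 463 CPM in HFD KC. Cx3cr1pos HFD had 244, 373, 308 and 411 CPM (hf1, hf2, hf3, hfd2), and ATM HFD 289, 231, 248, 261 and 241. The step between the Kupffer groups did not pass although they did not overlap (log2 -0.36, adjusted p = 0.281). Cx3cr1pos HFD was 1.52-fold below HFD KC (log2 -0.60 ± 0.16, adjusted p = 0.0175), which did not hold without Cx3cr1pos hf1 or hf3 (adjusted p up to 0.0643). ATM HFD was 2.15-fold below HFD KC (log2 -1.1 ± 0.15, adjusted p = 1.16e-05). Against Cx3cr1pos HFD it overlapped (log2 -0.50 ± 0.16, adjusted p = 0.0176), and this call was lost without Cx3cr1pos hf2 or hfd2 or ATM hf2 (adjusted p up to 0.136).

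The constitutive hexokinase Hk1 was called in no comparison. It stood at 82.7, 92.5 and 71.0 CPM in STD KC and at 115, 65.2, 56.5, 52.9 and 85.8 in HFD KC. Cx3cr1pos HFD had 51.6, 40.9, 61.5 and 55.8 CPM, and ATM HFD 67.9, 74.3, 48.4, 51.3 and 51.9. The ranges overlapped in each comparison made. Those of STD KC and Cx3cr1pos HFD, a pair that was not tested, did not overlap. The glucose transporter Slc2a1 (GLUT1) stood at 29.1 to 33.5 CPM in ATM HFD, below the 46.8 to 59.2 of Cx3cr1pos HFD (log2 -0.82, adjusted p = 0.000171) and below HFD KC, where only hf1 at 31.5 CPM overlapped (log2 -0.64, adjusted p = 0.000652). Glucose-6-phosphate isomerase (Gpi1), which feeds the next step, moved the opposite way. It stood at 252, 296, 282 and 264 CPM in Cx3cr1pos HFD, above the 211, 236, 182, 222 and 209.6 of HFD KC (log2 0.38 ± 0.09, adjusted p = 0.0123, and 0.0591 without Cx3cr1pos hf2), and at 273 to 329 CPM in ATM HFD (log2 0.41 against HFD KC, adjusted p = 0.00091).

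At the phosphofructokinase step the subunits differed in opposite directions between liver and adipose macrophages. Of the 5 genes, 3 were higher and 1 lower in ATM HFD than in HFD KC (median log2 fold change 0.62), and 2 higher and 1 lower than in Cx3cr1pos HFD (0.04). Of all genes, 23.8% were called higher and 25.2% lower in the first comparison, and 18.9% and 20.8% in the second. Pfkl, the liver-type subunit, stood at 51.3, 48.4, 40.8, 43.2 and 41.3 CPM in ATM HFD, below 140.1, 134, 77.3, 109.9 and 137 in HFD KC and below 92.8, 126, 117 and 127 in Cx3cr1pos HFD. All adipose libraries lay below all liver libraries, STD KC at 74.5 to 92.9 CPM included. The differences were 2.81-fold (log2 -1.49 ± 0.15, adjusted p = 4.94e-07) and 2.76-fold (log2 -1.46 ± 0.16, adjusted p = 1.84e-06). Pfkp, the platelet-type subunit, was higher in the adipose cells, at 175, 151, 152, 172 and 156 CPM. It stood at 90.8, 118, 66.7, 103 and 113 CPM in HFD KC (log2 0.62, adjusted p = 0.000933) and at 101, 106, 99.3 and 126 in Cx3cr1pos HFD (log2 0.47, adjusted p = 0.0136). Pfkm, the muscle-type subunit, was also higher in ATM HFD than in HFD KC (log2 0.70, adjusted p = 0.00152) and Cx3cr1pos HFD (log2 0.72, adjusted p = 0.003), at 9.91 to 14 CPM.

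Pfkm was the single gene of the set called lower on HFD in Kupffer cells. It stood at 10.1, 13.9 and 10.9 CPM in STD KC and at 8.28, 5.44, 5.31, 7.88 and 7.09 in HFD KC, with no overlap (log2 -0.77 ± 0.18, adjusted p = 0.0241). The call was lost without STD KC std2 or std3 or HFD KC hfd2 (adjusted p up to 0.179).

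Pfkfb4, whose enzyme makes the activator of phosphofructokinase, fructose 2,6-bisphosphate, and can also break it down, set the Kupffer cells apart from the other 2 populations. It stood at 64.1, 64.8 and 58.2 CPM in STD KC and at 58.5, 68.4, 54.1, 68.4 and 49.1 in HFD KC. The levels were 133, 126, 127 and 111 CPM in Cx3cr1pos HFD and 145, 126, 125, 136 and 116 in ATM HFD, so that no Kupffer library overlapped a library of the other populations. Cx3cr1pos HFD was 2.08-fold above HFD KC (log2 1.06 ± 0.12, adjusted p = 1.63e-05) and ATM HFD 2.04-fold (log2 1.03 ± 0.11, adjusted p = 8.81e-07). Between Cx3cr1pos and ATM HFD the log2 fold change was -0.03, with a 95% interval from -0.26 to 0.20. Its relative Pfkfb3 was called in no comparison (27.9 to 80.1 CPM).

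The 8 genes of lower glycolysis had positive log2 fold changes on HFD in Kupffer cells, with a median of 0.47. Over all genes tested, 7974 of 15285 were positive. Among the 8 are Gapdh, Pgk1, Pgam1 and Eno1, whose levels cannot be read from the counts, as described below. The others were Aldoa (log2 0.25), Aldoc (0.31), Tpi1 (0.41) and Pkm (0.64), none of them called. Only 1 of the 8, Pgk1, was called, beside 2.27% of all genes called higher. Pyruvate kinase (Pkm), the last step, stood at 761, 688 and 756 CPM in STD KC and at 1087, 1217, 879.7, 1346 and 1211 in HFD KC. These groups did not overlap, and the difference lay just outside the threshold (log2 0.64 ± 0.18, adjusted p = 0.0542). Among the alternatives it passed only with total counts in place of TMM (adjusted p = 0.0359), in DESeq2 (0.00964) and without HFD KC hf1 (0.0281). Triose-phosphate isomerase (Tpi1, log2 0.41, adjusted p = 0.0839) and enolase 1 (Eno1, log2 0.35, adjusted p = 0.123) also had no overlap between the groups, and Tpi1 passed in DESeq2 (adjusted p = 0.0308).

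Against Cx3cr1pos HFD, 5 of the 8 lower glycolysis genes were lower in ATM HFD and none was higher (median log2 fold change -0.37). Of all genes, 20.8% were called lower and 18.9% higher there. The 5 were Aldoc, Aldoa, Tpi1, Pgk1 and Eno1. The levels of Pgk1 and Eno1 cannot be read from the counts, as described below, and the call of Tpi1 was lost in most alternatives. Aldolase C (Aldoc), an isoenzyme best known from brain, stood at 3.01, 1.80, 2.46, 3.49 and 2.75 CPM in ATM HFD and at 8.11, 11.7, 10.2 and 10.4 in Cx3cr1pos HFD. HFD KC had 6.80, 11.2, 6.96, 13.7 and 10.5 CPM, so the adipose libraries lay below both. The differences were 4.00-fold (log2 -2.00 ± 0.23, adjusted p = 3.27e-06) and 3.86-fold (log2 -1.95 ± 0.22, adjusted p = 1.57e-06). Aldolase A (Aldoa), the main form in most cells, stood at 1091, 959.5, 1059, 1159 and 1211 CPM in ATM HFD. It stood at 1250.3, 1551, 1460.3 and 1244 CPM in Cx3cr1pos HFD (log2 -0.43, adjusted p = 0.00178) and at 1185, 1227, 1166, 1338 and 1250.2 in HFD KC (log2 -0.26, adjusted p = 0.0234, lost with total counts, without HFD KC hf2 and without ATM hfd2, hf1 or hf2).

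The calls of Tpi1, Pgk1 and Eno1 in the same comparison were less steady. Tpi1 (log2 -0.30, adjusted p = 0.0472) and Eno1 (log2 -0.30, adjusted p = 0.0349) were lost in 15 and 14 of the 17 alternatives, DESeq2 and the omission of Cx3cr1pos hf2 or hf3 among them, with adjusted p up to 0.355 and 0.34. Pgk1 (log2 -0.45, adjusted p = 0.0138) was lost without Cx3cr1pos hf2 or hfd2 (adjusted p up to 0.11). Tpi1 was higher in Cx3cr1pos HFD than in HFD KC (log2 0.36, adjusted p = 0.0426), and this call was lost in 13 of the 17 alternatives.

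Gapdh, which reads near the top of most RNA profiles, stood at 6.82 to 12.9 CPM over the 17 libraries, Pgk1 at 6.00 to 15.1 and phosphoglycerate mutase 1 (Pgam1) at 0.876 to 3.04. In GENCODE M21 transcripts of these genes, 58.4% of the windows of 50 bases (the read length) of Gapdh occur in another gene as well, 68.0% of those of Pgk1, 41.5% of Pgam1 and 49.5% of Eno1. Windows of Gapdh occur in 215 annotated pseudogenes. Counting tools can keep or drop reads that fit several genes, and how the deposited counts treated them is not given in the sources used here. A level of these 4 genes therefore cannot be read from the counts, and Gapdh was called in no comparison. On the diet it passed in DESeq2 (log2 0.54, adjusted p = 0.0215) and without HFD KC hf3 (adjusted p = 0.0481). The diet call of Pgk1 (6.45, 6.00 and 7.44 against 8.89, 10.3, 8.22, 10.9 and 10.9 CPM, log2 0.57, adjusted p = 0.0495) was lost in 12 of 15 alternatives. Without all 4 genes the calls in the 4 comparisons numbered 5, 6, 19 and 17. Of the 32 genes, 11 share no window with another gene, among them Hk2, Hk3, Pfkfb4, Aldoc, Slc16a1, Slc16a3, Pgd and Tkt.

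**Figure D4:**
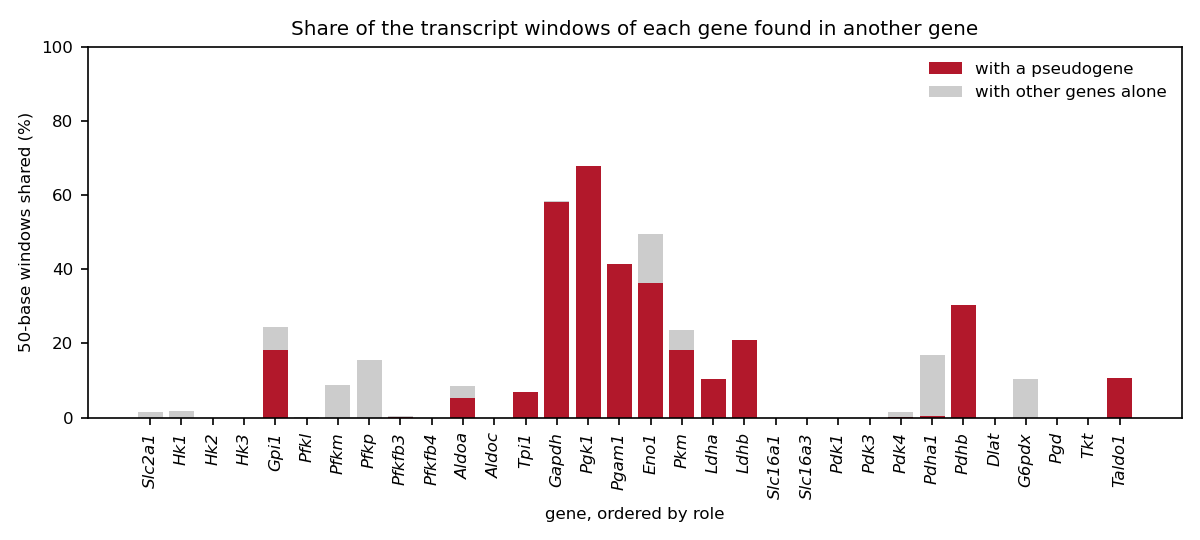
Share of the 50-base windows of each gene's transcripts that occur in another annotated gene, in percent, with pseudogenes in red and other genes alone in grey. Pgk1 (68.0%), Gapdh (58.4%), Eno1 (49.5%) and Pgam1 (41.5%) stand above 40%, and 11 genes stand at 0.

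Isoenzyme balance was tested within libraries, since a ratio of 2 counts does not depend on scaling. The ratios are not corrected for gene length, so their change between groups is given and not their level. The Hk2/Hk1 ratio was 4.64-fold lower in ATM HFD than in HFD KC (log2 difference -2.21, exact permutation p = 0.00794) and 6.80-fold lower than in Cx3cr1pos HFD (-2.77, exact p = 0.0159). Pfkp/Pfkl was 4.33-fold and 3.82-fold higher in ATM HFD (log2 differences 2.12 and 1.93, with the same exact p-values). Aldoc/Aldoa was 3.16-fold and 3.00-fold lower (-1.66 and -1.58), again with the same p-values. The two-sided exact tests cannot give less than 0.00794 and 0.0159 at these group sizes. Adjusted over the 20 ratios tested, all 6 exact permutation tests had p = 0.0454. This adjusted value depends on which pairs were chosen. The ratios also reuse Hk2, Pfkp, Pfkl and Aldoc, which were called above, and are not separate support for those calls.

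Ldhb/Ldha was 3.30-fold lower in ATM HFD than in Cx3cr1pos HFD (log2 difference -1.72, exact p = 0.0159, adjusted p = 0.0454), while against HFD KC the groups overlapped (-1.12, exact p = 0.0794, adjusted p = 0.144). On the diet, HFD KC lay below STD KC without overlap in Ldhb/Ldha (-1.23) and Pfkp/Pfkl (-0.48), each at the smallest p that 3 against 5 libraries allow (exact p = 0.0357), and neither passed the adjustment (0.0794). Hk3/Hk1 passed in no comparison, with the smallest exact p at 0.0556 for ATM HFD against HFD KC (adjusted p = 0.111). No ratio passed between Cx3cr1pos HFD and HFD KC.

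**Figure D5:**
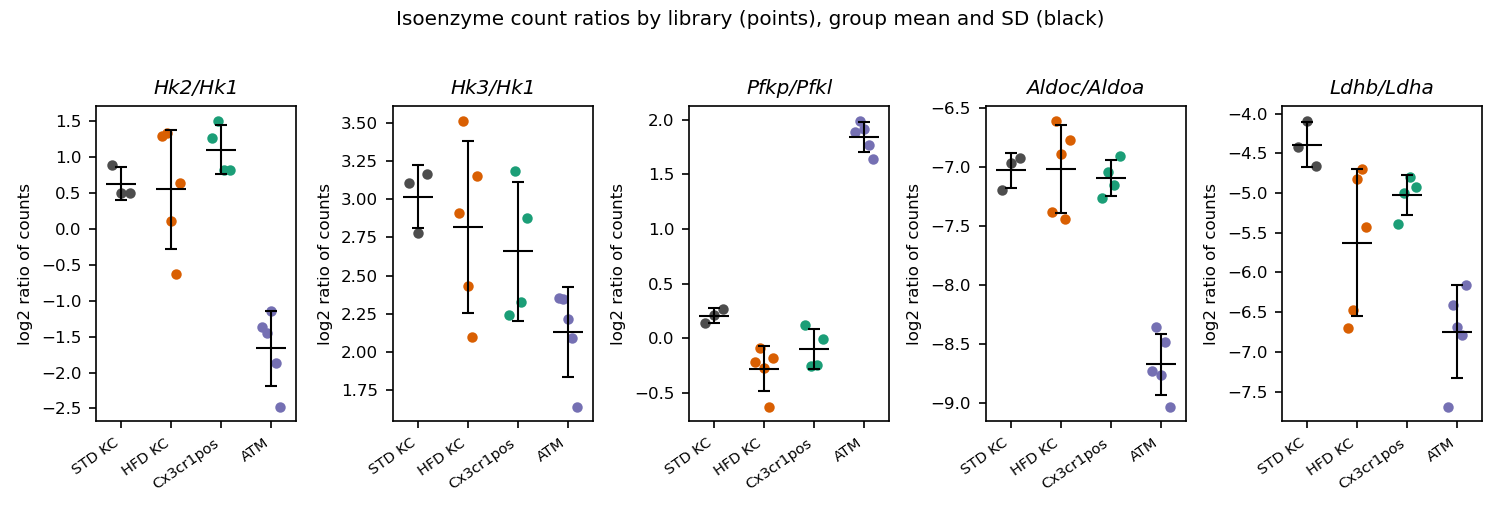
Log2 ratio of the counts of 5 isoenzyme pairs in each library (points) with the group mean and SD (black). The ATM points lie below all liver points for Hk2/Hk1 and Aldoc/Aldoa and above them for Pfkp/Pfkl, while for Ldhb/Ldha they overlap the HFD KC points.

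Around pyruvate dehydrogenase, the genes called were kinases. The enzyme subunits Pdha1, Pdhb and Dlat were called in no comparison, at 65.3 to 114, 49.2 to 75.4 and 15.3 to 31.9 CPM. Pdk4, the kinase that fasting and fatty acids induce, stood at 2.50, 3.22, 3.25 and 4.87 CPM in Cx3cr1pos HFD (hf1, hf2, hf3, hfd2). In ATM HFD it stood at 20.1, 27.3, 11, 15 and 12.9 CPM, a 4.63-fold difference without overlap (log2 2.21 ± 0.47, adjusted p = 0.00117). HFD KC again split as for Ldhb, with 21.6, 15.6 and 22.3 CPM in hfd1, hfd2 and hf3 but 4.56 in hf1 and 4.26 in hf2. Both of these overlapped Cx3cr1pos HFD, and the group as a whole was 3.86-fold above it (log2 -1.95 ± 0.46 for Cx3cr1pos HFD against HFD KC, adjusted p = 0.00915). Of the 3 libraries with the sort label CD68, hf1 and hf2 were low and hf3 was high, both frac_neg libraries were high, and the part of the sort label in the split was not tested.

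Pdk3 rose in Kupffer cells on HFD, from 6.95, 7.39 and 6.56 CPM to 9.06, 11.4, 10.7, 9.58 and 8.91 (log2 0.51 ± 0.13, adjusted p = 0.0422). This call was lost without any 1 of the 3 STD KC libraries, or without HFD KC hfd2, hf1 or hf2. Pdk1, a HIF-1 target in human and mouse cells, was higher in ATM HFD than in HFD KC (30.97 ± 8.16 against 19.3 ± 4.28 CPM, SD, n = 5 each, log2 0.59, adjusted p = 0.0188), with ATM hf2 at 16.7 CPM inside the HFD KC range. The Pdk1 call held without any single library (adjusted p up to 0.0495). It was lost with the libraries named hf alone (0.0996) and with those named hfd alone (0.179).

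All 4 pentose phosphate genes were lower in ATM HFD than in HFD KC and than in Cx3cr1pos HFD. Their median log2 fold changes were -0.59 and -0.57, and 25.2% and 20.8% of all genes were called lower. None of the 4 was called between the liver groups. Transaldolase (Taldo1), of the branch that returns sugars to glycolysis, differed most. It stood at 299, 266, 349, 366 and 347 CPM in ATM HFD, at 618, 667, 708, 757 and 604 in HFD KC and at 802, 842, 828 and 736 in Cx3cr1pos HFD. The adipose libraries lay far below both, and STD KC (640.4, 667 and 750.4 CPM) lay with HFD KC. The differences were 2.19-fold (log2 -1.13 ± 0.10, adjusted p = 1.34e-07) and 2.63-fold (log2 -1.40 ± 0.11, adjusted p = 3.85e-08), and they held in each alternative. Mitochondrial genes took 0.598% to 1.36% of the counts in ATM HFD, 0.374% to 0.640% in HFD KC and 0.295% to 0.453% in Cx3cr1pos HFD, and the part of this difference in the values of the adipose cells was not tested.

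Transketolase (Tkt), of the same branch, stood at 410.2 to 534 CPM in ATM HFD, 544 to 696 in HFD KC (log2 -0.49, adjusted p = 0.000476) and 632 to 762 in Cx3cr1pos HFD (log2 -0.70, adjusted p = 4.12e-05). Glucose-6-phosphate dehydrogenase (G6pdx) opens the pathway and makes its first NADPH. Its level was 111 to 154 CPM in ATM HFD, 168 to 218 in HFD KC (log2 -0.61, adjusted p = 6.52e-05) and 164 to 177 in Cx3cr1pos HFD (log2 -0.42, adjusted p = 0.00373). Phosphogluconate dehydrogenase (Pgd), which makes the second NADPH, overlapped between the groups in both comparisons (log2 -0.56, adjusted p = 0.000657, and log2 -0.45, adjusted p = 0.0077). Its call against Cx3cr1pos HFD was lost without Cx3cr1pos hf2 or hfd2 (adjusted p up to 0.062).

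Of 36 other genes of the pathway, 34 were tested, with median log2 fold changes of -0.02, -0.04, -0.17 and -0.13 in the 4 comparisons in the order used above. Cytosolic and mitochondrial enzymes of gluconeogenesis were among those that differed. Of all genes, 2.27% were called higher and 1.13% lower on the diet. On the diet 1 of the 34 rose and 1 fell: neuronal enolase (Eno2) went from 0.0789 ± 0.0573 to 1.25 ± 0.768 CPM (SD, n = 3 and n = 5, adjusted p = 0.0022), its STD KC level being near that of 3 counts per library, and mitochondrial PEP carboxykinase (Pck2) fell (log2 -0.60, adjusted p = 0.0376). Between the liver populations 3 were higher and 3 lower in Cx3cr1pos HFD, beside 5.85% and 7.48% of all genes. The transporter Slc2a6, which inflammatory stimuli induce in macrophages, was lower (log2 -1.46, adjusted p = 0.00747), as was glucose-6-phosphatase (G6pc, 0.136 ± 0.0565 against 0.678 ± 0.315 CPM, adjusted p = 0.0146), and muscle enolase (Eno3) was higher (log2 0.89, adjusted p = 0.0104). The Cx3cr1pos level of G6pc was near that of 3 counts per library (0.0785 to 0.117 CPM). Hepatocyte markers were lower in Cx3cr1pos HFD too, with 4 of 7 called, and the part of hepatocyte RNA in the G6pc values was not tested.

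ATM HFD had 5 of the 34 higher and 12 lower than HFD KC, beside 23.8% and 25.2% of all genes. Against Cx3cr1pos HFD it had 4 higher and 12 lower, beside 18.9% and 20.8% of all genes. Cytosolic PEP carboxykinase (Pck1), which is abundant in hepatocytes, stood at 0.791 ± 0.623 CPM in ATM HFD, against 13.8 ± 6.30 in HFD KC and 10.6 ± 2.88 in Cx3cr1pos HFD (adjusted p = 2.41e-06 and 1.36e-05). All 7 hepatocyte markers were lower in ATM HFD in both comparisons, and their sum was 44.6 to 88.1 CPM in Cx3cr1pos HFD. The part of hepatocyte RNA in the Pck1 values was not tested. Eno2 was higher in ATM HFD, at 20.2 ± 2.32 CPM, than in HFD KC (log2 3.92, adjusted p = 1.89e-07), and Eno3 was lower than in Cx3cr1pos HFD (log2 -1.99, adjusted p = 2.1e-06).

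The 20 HIF pathway genes outside the set had median log2 fold changes of 0.16, -0.10, -0.23 and -0.16. Of all genes, 2.27% and 1.13%, 5.85% and 7.48%, 23.8% and 25.2%, and 18.9% and 20.8% were called higher and lower in this order. On the diet Ankrd37, a HIF-1 target, rose (log2 2.57, adjusted p = 0.00263), the prolyl hydroxylase subunit P4ha2, which modifies collagen, fell (log2 -1.15, adjusted p = 0.00946), and 18 were not called. In Cx3cr1pos HFD 1 was higher and 4 lower than in HFD KC, among them adrenomedullin (Adm, log2 -2.43, adjusted p = 0.000115), P4ha2 (log2 -1.04, adjusted p = 0.00442) and HIF-2α (Epas1, log2 -1.58, adjusted p = 0.0155), which endothelium also expresses strongly. Endothelial markers were lower there too, at 575 to 777 CPM, and 5 of the 7 were called. In ATM HFD 3 were higher and 7 lower than in HFD KC, with P4ha1 (log2 -1.97, adjusted p = 2.15e-09), P4ha2 (log2 -3.22, adjusted p = 5.05e-09) and Adm (log2 -3.04, adjusted p = 5.62e-07) leading. Against Cx3cr1pos HFD 2 were higher and 4 lower in ATM HFD, led by P4ha1 (log2 -1.54, adjusted p = 1.15e-07), P4ha2 (log2 -2.18, adjusted p = 1.1e-06) and the HIF ubiquitin ligase subunit Vhl (log2 -0.77, adjusted p = 3.9e-05).

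The 10 glycogen and hexosamine genes had medians of 0.04, -0.03, -0.14 and -0.12. On HFD 2 of them fell, beside 1.13% of all genes. These were the glycogen phosphorylase Pygb (log2 -0.49, adjusted p = 0.0332) and the hexosamine enzyme Uap1 (log2 -0.44, adjusted p = 0.0375). In Cx3cr1pos HFD 3 were lower than in HFD KC, beside 7.48% of all genes. These were the liver-type glycogen phosphorylase Pygl (log2 -1.0, adjusted p = 0.000257), Pygb (log2 -0.68, adjusted p = 0.000658) and the branching enzyme Gbe1 (log2 -0.41, adjusted p = 0.0122). In ATM HFD 1 was higher and 5 lower than in HFD KC, beside 23.8% and 25.2% of all genes. Pygl stood at 22.6 ± 4.68 CPM there against 169 ± 21.8 (log2 -3.01, adjusted p = 8.75e-11) and Pygb was lower as well (log2 -1.08, adjusted p = 3.14e-07), while glycogenin (Gyg), the primer of glycogen synthesis, stood at 311 ± 35 against 85.6 ± 12.4 CPM (log2 1.77, adjusted p = 8.91e-08). Against Cx3cr1pos HFD 1 was higher and 4 lower, beside 18.9% and 20.8% of all genes. These were led by Pygl (log2 -2.01, adjusted p = 2.09e-08), Gyg (log2 1.39, adjusted p = 5.71e-06) and the hexosamine enzyme Gfpt1 (log2 -0.45, adjusted p = 0.00315).

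Markers of other cells moved with the diet comparison too. B and plasma cell markers summed to 64.0 to 196 CPM in STD KC and 328 to 784 in HFD KC (2 of 7 called higher), and T and NK cell markers to 4.98 to 5.27 and 7.76 to 55.5 CPM (1 of 7 higher). Hepatocyte markers (108 to 252 and 97.6 to 499 CPM) and endothelial markers (2179 to 3016 and 1241 to 3070 CPM) overlapped, and none of their genes was called. The dendritic cell marker Ccr7 rose as well (adjusted p = 0.0149), with marker sums of 28.9 to 34.2 and 18.3 to 139 CPM. The part of these cells in the rise of Ldha, Slc16a1 and Slc16a3 was not tested. In ATM HFD all 5 markers of dividing cells were higher than in HFD KC (178 to 261 against 88.6 to 154 CPM). Adipocyte markers there summed to 5.65 to 18.1 CPM, against 0.232 to 1.94 in HFD KC, and platelet markers, of which Pf4 is also made by macrophages, to 550 to 1146 against 43.0 to 60.1 CPM. Of the 4 platelet markers tested, only 1 was higher in ATM HFD than in HFD KC and 2 were lower (median log2 fold change -0.51). ATM hf1 stood apart in neutrophil markers, at 68.8 CPM against 3.67 to 6.39 in the other ATM libraries. Without it the call of Aldoa against HFD KC and that of Eno1 against Cx3cr1pos HFD were lost, and the other ATM calls were kept. The part of the other marker genes in the values of the adipose cells was not tested.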

How the data were processed

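RNA was measured in 17 libraries of sorted macrophages. Per the labels' protocols, libraries were made from total RNA using a SMARTer kit and read from a single end over 50 bases, and the submitters' processing notes name bcl2fastq, STAR 2.0.4b, Subread and featureCounts 1.4.5. The genome build and annotation, the treatment of reads that fit several genes and the counting by strand are not given in the sources used here. The deposited values are whole read counts per gene, not normalized, in 40824 entries, of which 276 repeat a gene identifier and were dropped. Where a symbol had several entries, that with most counts was used. Groups were taken from the source of each sample.

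The filter on low counts was filterByExpr. With TMM scaling, edgeR's quasi-likelihood model took all 17 libraries and 1 term for each group (version 4.0.16, R 4.3.3), with two-sided F-tests and Benjamini-Hochberg adjustment over 15285 genes. CPM are scaled by the library total alone. Values after ± are SE for log2 fold changes and SD for CPM. Isoenzyme ratios, with 1 added to each count, were compared by two-sided exact permutation tests of group means. Library totals were 25644835 to 38207943 counts, at which 3 counts correspond to 0.0785 to 0.117 CPM. The F-tests were checked on simulated counts with the same dispersion setting for every gene, and the permutation tests were not. All 32 genes are accounted for, and up to 5 called genes per comparison, by the smallest adjusted p, are given by library, with their isoenzyme partners, in the groups of the calls. Of each other list, the 3 called genes with the smallest adjusted p are named, except 1 gene that is not reported here. The genes, the lists and the markers were chosen with earlier results of these data known.

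Whether equal library names pair samples was checked by the correlation, across genes, of their deviations from the group mean. Between HFD KC and Cx3cr1pos HFD it was 0.166 to 0.301 for same names, above the limit of 0.1 in each pair, and -0.24 to 0.16 for different names. The different-name pair of Cx3cr1pos hfd2 and HFD KC hfd1 also passed this limit, at 0.16, so a pairing is not settled. The main fit held no block, so the fold changes and p-values given above do not use a pairing. For ATM HFD it was -0.02 to 0.186 with HFD KC and 0.0465 to 0.204 with Cx3cr1pos HFD, which does not meet the limit of 0.1 in each pair. With the replicate block, 5 of the set were called between Cx3cr1pos HFD and HFD KC, as the call of Tpi1 was lost. Alternatives were DESeq2 1.42.0, RLE factors, total counts, no filter, only the groups compared, libraries by name prefix, the replicate block and leaving out each library.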

Additional observations from a re-analysis of the deposited data

Results flagged for a closer look

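Among 96 combinations of a gene of the set and a group of 4 or 5 libraries, 4 held a library far from the others, and chance alone flags about 1 in 20. Slc16a3 stood at 5.26 CPM in HFD KC hf1 and at 10.9 to 12.8 in the other HFD KC libraries. Pdk1 stood at 16.7 CPM in ATM HFD hf2 and at 31.9 to 36.2 in the others. Pdhb stood at 55.3 CPM in Cx3cr1pos HFD hfd2 and at 64.4 to 65.8 in the others. Dlat stood at 31.9 CPM in HFD KC hfd2 and at 19.7 to 22.9 in the others.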

How the results depend on the processing

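No gene of the set changed direction in a call, and the cause of each shift below was not tested. On the diet, 519 genes were called in all, against 210 with only the groups compared, 1156 in DESeq2, and 126 (without STD KC std2) to 542 without single libraries. Of the set 6 were called, against 2 with only the groups compared or the hf libraries, 3 with the hfd libraries, and 1 (without std2) to 7 without single libraries. Calls of the set held in every alternative numbered 1 of 6 (Slc16a3) on the diet, 0 of 6 for Cx3cr1pos HFD against HFD KC, 13 of 19 for ATM HFD against HFD KC and 8 of 19 for ATM HFD against Cx3cr1pos HFD. Of the 8 genes called in no comparison, Hk1, Gapdh, Pgam1, Pkm, Pdhb and Dlat passed in some alternative (adjusted p from 0.00964 to 0.0481).

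With the hfd libraries alone, of which Cx3cr1pos HFD has 1, the counts over all genes fell from 2037 to 41 (Cx3cr1pos HFD against HFD KC), from 7496 to 4328 (ATM HFD against HFD KC) and from 6073 to 1752 (ATM HFD against Cx3cr1pos HFD), and the counts of the set from 6 to 0 and from 19 to 9 in the first and last of these. Leaving out 1 library gave 1327 (without Cx3cr1pos hf3) to 2117 genes for Cx3cr1pos HFD against HFD KC. No paired analysis was possible on the diet because STD KC shares no library name with HFD KC. With the replicate block, 5, 21 and 16 of the set were called in the other comparisons, where Tpi1, Pgk1 and Eno1 were lost between ATM HFD and Cx3cr1pos HFD. Of the isoenzyme ratios that passed, those of ATM HFD against Cx3cr1pos HFD had adjusted p = 0.0794 without any single library, and those of ATM HFD against HFD KC 0.0397 to 0.0794, since fewer libraries allow fewer permutations.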
